A study of Mus musculus with 34 samples.

Results

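The interferon response genes described here are Irf1, Irf7, Isg15, Ifit1, Ifit3, Ifi47, Igtp, Gbp2 and B2m, 9 of the 13319 genes that the array's annotation names. They were taken by symbol, with every probe set annotated to them. The list was chosen with earlier results of these data known. All 9 genes had a probe set, and the 2 genes Gbp2 and B2m had 2 each, which gave 11 probe sets. The Isg15 probe set is annotated to Isg15 and to Gm9706, a pseudogene on chromosome 17, so its signal cannot be given to Isg15 alone. For Gbp2 and B2m the probe set of higher mean intensity is called the brighter one and the other the dimmer one.

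Interferons are secreted proteins that warn cells of infection. Type I interferons signal through the Ifnar receptor and interferon gamma through the Ifngr receptor. Both use JAK kinases and STAT proteins, which turn on genes with an interferon-stimulated response element (ISRE) or a gamma-activated site (GAS) near their start. Many such genes are also expressed without infection, B2m in nearly all nucleated cells, so that bulk muscle and liver hold their transcripts from several cell types.

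The study measured total RNA of mouse muscle and liver on 34 Affymetrix arrays. The mutant groups were MGSKO mice, knockouts of muscle glycogen synthase (Gys1), at 3 months, with 4 arrays of anterior tibialis, 3 of medial gastrocnemius and 4 of liver, and GSL30 mice, which overexpress muscle glycogen synthase, at 8 months, with 5 arrays of medial gastrocnemius. Their wild-type (WT) groups of the same age and tissue had 4 arrays of tibialis, 5 of gastrocnemius at 3 months, 4 of liver and 5 of gastrocnemius at 8 months. The labels give a C57BL6/129SV background for tibialis only, and give neither the GSL30 promoter, nor the number of founder lines, nor an animal for each array, so p-values measure only the spread between arrays.

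The Gys1 values followed the labels in muscle. The brighter Gys1 probe set read 34.2 to 72.5 in MGSKO tibialis and 8184 to 9958 in WT tibialis, 58.1 to 165 in MGSKO gastrocnemius and 3955 to 6378 in WT gastrocnemius, and 7896 to 10404 in GSL30 gastrocnemius and 5840 to 7185 in its WT group. In liver it read 18.6 to 60 in MGSKO arrays and 42.2 to 72.2 in WT arrays, ranges that overlapped. The labels do not say which part of the gene the knockout removed or which part these probe sets read. Summed over 10 skeletal muscle markers, intensities were 1188 to 3101 in MGSKO liver and 924 to 1375 in WT liver, and at least 384168 on every muscle array, so skeletal muscle markers separated muscle from liver. Summed over 10 hepatocyte markers, tibialis arrays stayed between 2278 and 4015, but the gastrocnemius arrays held hepatocyte transcripts, from 51012 to 148734 in MGSKO and 53210 to 647847 in WT at 3 months, and from 8795 to 15146 in GSL30 and 14835 to 32545 in WT at 8 months. Liver arrays read 430880 to 558845 in MGSKO and 464878 to 507577 in WT. WT gastrocnemius replicate 2 at 3 months stood apart, with the hepatocyte sum of 647847, above every liver array, and a skeletal muscle sum of 1845200, against at most 543574 on the other arrays of that group. Array medians ran from 296 to 440.3 after the authors' scaling, and arrays of 1 group correlated at 0.902 to 0.980. In bulk tissue, fewer cells of a type and less RNA per cell cannot be told apart.

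The letters next to the starts of these genes are shown because the members are known for responding to interferon through ISRE and GAS elements. The 250 bases before each start in the promoter annotation were searched on both strands for GAAANNGAAA, the core of an ISRE, which reads TTTCNNTTTC on the other strand, and for TTCNNNGAA, the core of a GAS, which reads the same on both strands. RefSeq promoter sequence (build GRCm38.p6) was found for all 9 genes, with 2 starts for Irf1 and 10 windows in all. The ISRE core was in 6 of these 10 windows and in 2.98% of all 32851 promoter windows of the same length. The GAS core was in 2 of the 10 and in 7.02% of all windows. The Ifit3 start used there lies 410 bases inside the gene's outermost annotated start, so its stretch is upstream of 1 of its starts and within the widest annotated extent of the gene. The Irf7 start lies 75 bases inside. Both cores are in capitals in the stretches below, which run 5′ to 3′ on each gene's own strand.
Irf1 (chr11:53769904-53769952, plus strand, 1 GAS core): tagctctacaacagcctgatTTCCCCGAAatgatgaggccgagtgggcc
Isg15 (chr4:156200855-156200916, minus strand, overlapping ISRE cores): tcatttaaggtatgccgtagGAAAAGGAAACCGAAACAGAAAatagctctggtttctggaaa
Ifit1 (chr19:34640765-34640833, plus strand, 2 ISRE cores on the other strand): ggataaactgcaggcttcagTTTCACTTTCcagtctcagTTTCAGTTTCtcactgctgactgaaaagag
Ifit3 (chr19:34583353-34583436, plus strand, 2 ISRE cores on the other strand): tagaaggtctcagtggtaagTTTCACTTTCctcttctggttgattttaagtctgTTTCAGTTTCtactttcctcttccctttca
Igtp (chr11:58199491-58199551, plus strand, a GAS core and then an ISRE core): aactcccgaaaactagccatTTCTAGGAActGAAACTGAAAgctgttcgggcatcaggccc
Gbp2 (chr3:142620584-142620633, plus strand, 1 ISRE core on the other strand): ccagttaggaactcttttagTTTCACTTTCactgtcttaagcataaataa
B2m (chr2:122147528-122147577, plus strand, 1 ISRE core): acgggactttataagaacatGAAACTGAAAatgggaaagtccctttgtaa
Neither core was in the windows of Irf7, of Ifi47 or of the second start of Irf1, which says only that these letters are not in those 250 bases. Ifit1 and Ifit3 lie on chromosome 19, Irf1, Ifi47 and Igtp on chromosome 11 and Irf7 on chromosome 7.

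Values below are intensities on the authors' linear scale, and differences are mutant minus WT on the scale log2(intensity + 50) with the standard error (SE) from limma. Adjusted p is limma's, with Benjamini-Hochberg adjustment over the 13576 probe sets tested in a comparison, and a probe set passed below 0.05. Counts of members in a comparison or contrast are counts of probe sets, so Gbp2 and B2m can count more than once. A probe set in the dimmest 40% of a comparison was not tested: the Isg15 probe set was tested only where liver arrays entered the fit, and the dimmer Gbp2 probe set not in liver or in gastrocnemius at 3 months.

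No member probe set passed the threshold in any of the 4 mutant comparisons. In MGSKO tibialis 0 of 10 tested passed, where 1.4% of all probe sets did. In MGSKO gastrocnemius 0 of 9 passed, against 0.147% of all, in MGSKO liver 0 of 10, against 0.00737%, and in GSL30 gastrocnemius 0 of 10, against 4.31%. At an unadjusted p under 0.05 there were 3 in MGSKO tibialis (15% of all probe sets), 0 in MGSKO gastrocnemius (11.4% of all), 2 in MGSKO liver (8.33% of all) and 3 in GSL30 gastrocnemius (21.4% of all). The median difference of the tested members was 0.33 in MGSKO tibialis, against 0.04 over all probe sets, -0.10 against 0.05 in MGSKO gastrocnemius, -0.15 against 0.02 in MGSKO liver and -0.19 against 0.03 in GSL30 gastrocnemius. The share above 0 was 8 of 10 in MGSKO tibialis (56.7% of all probe sets), 4 of 9 in MGSKO gastrocnemius (56.5%), 3 of 10 in MGSKO liver (55%) and 3 of 10 in GSL30 gastrocnemius (53.5%). In tibialis that count was 7 of 10 with quantile normalization or with a common median.

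**Figure D1:**
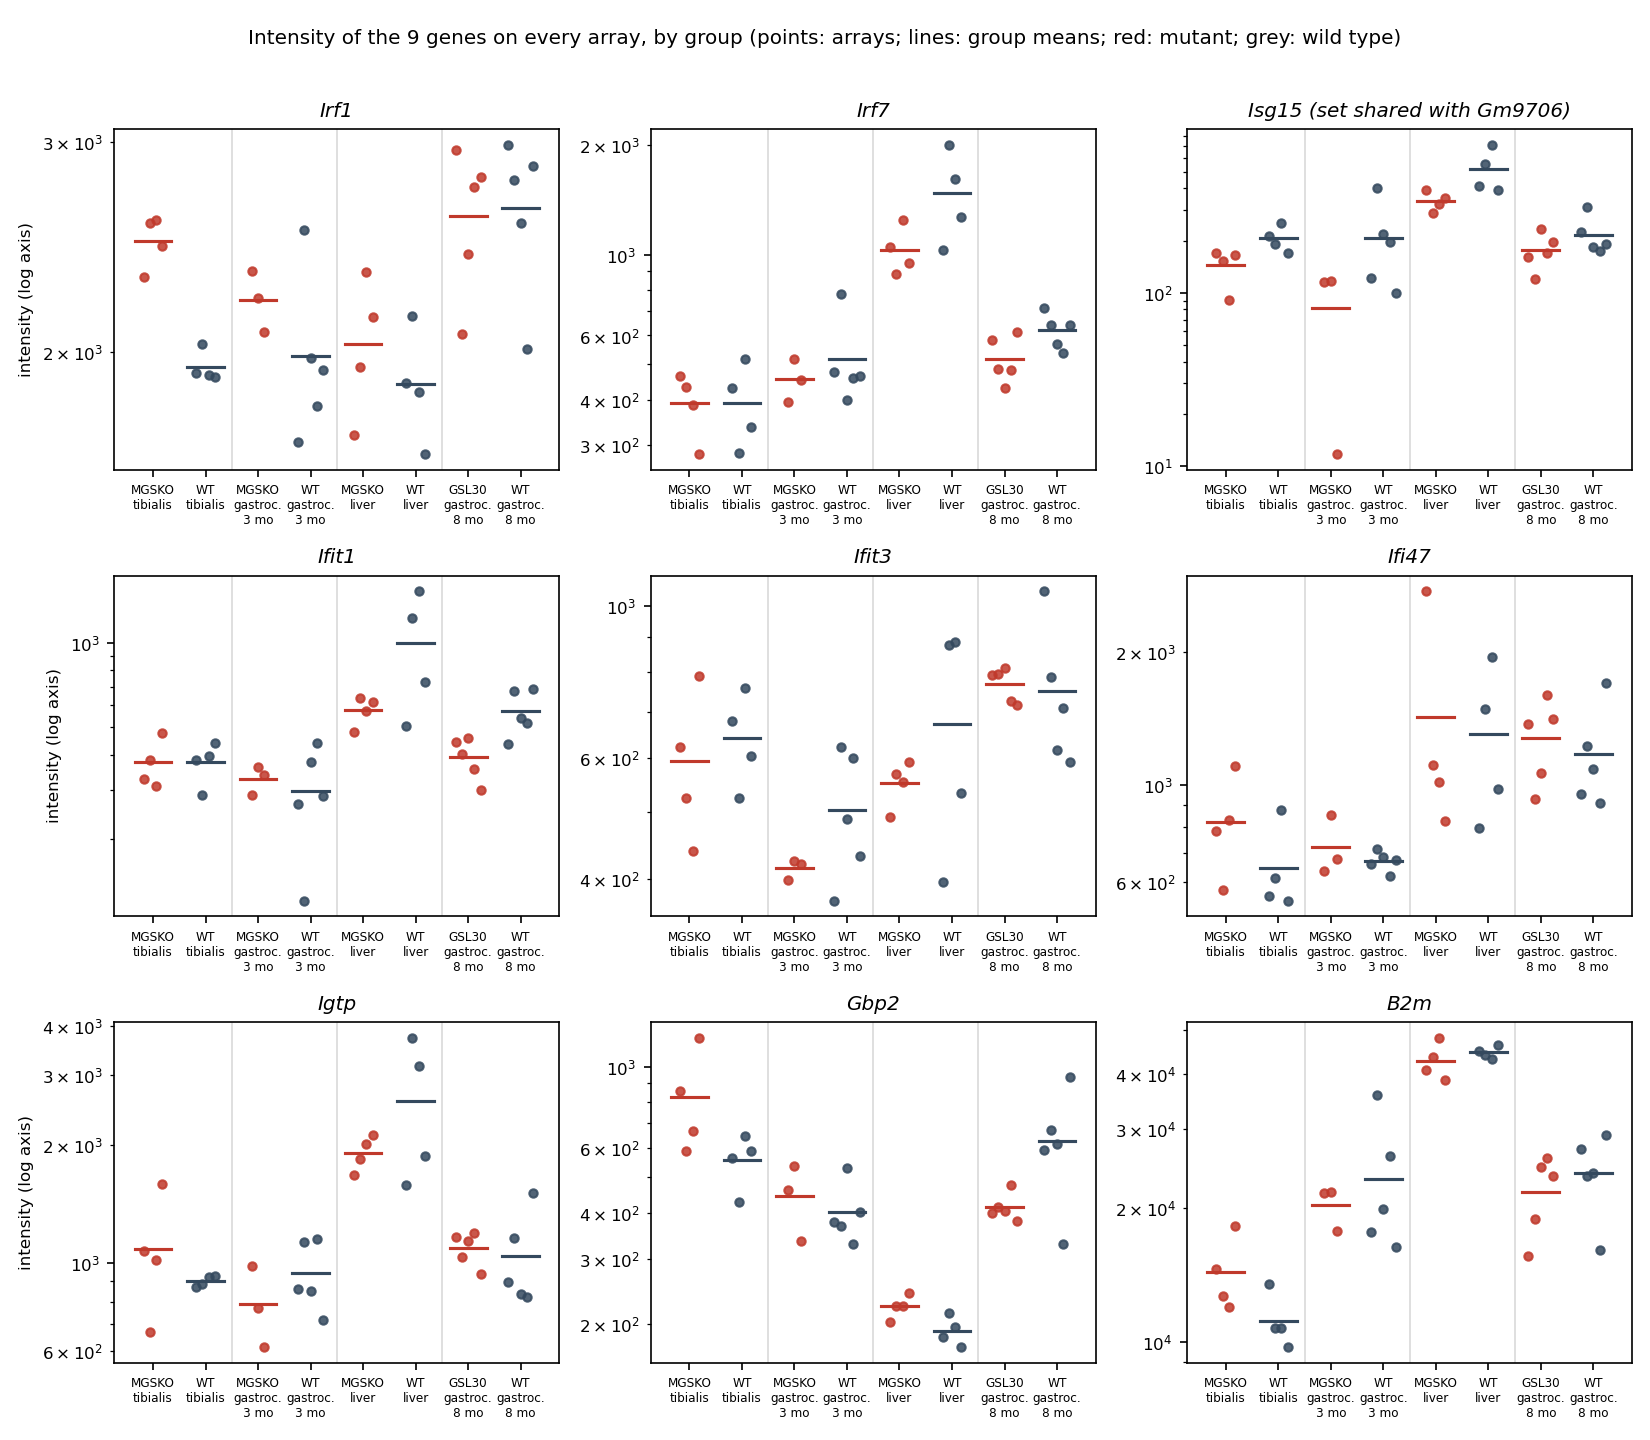
Intensity (log axis, arbitrary units of the array) of the 9 genes on each of the 34 arrays, with the brighter probe set for Gbp2 and B2m. Points are arrays, lines are group means, and each mutant group stands left of its WT group. In the Irf1 panel the MGSKO tibialis arrays, 2312 to 2583, all lie above the WT tibialis arrays, 1905 to 2033.

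**Figure D2:**
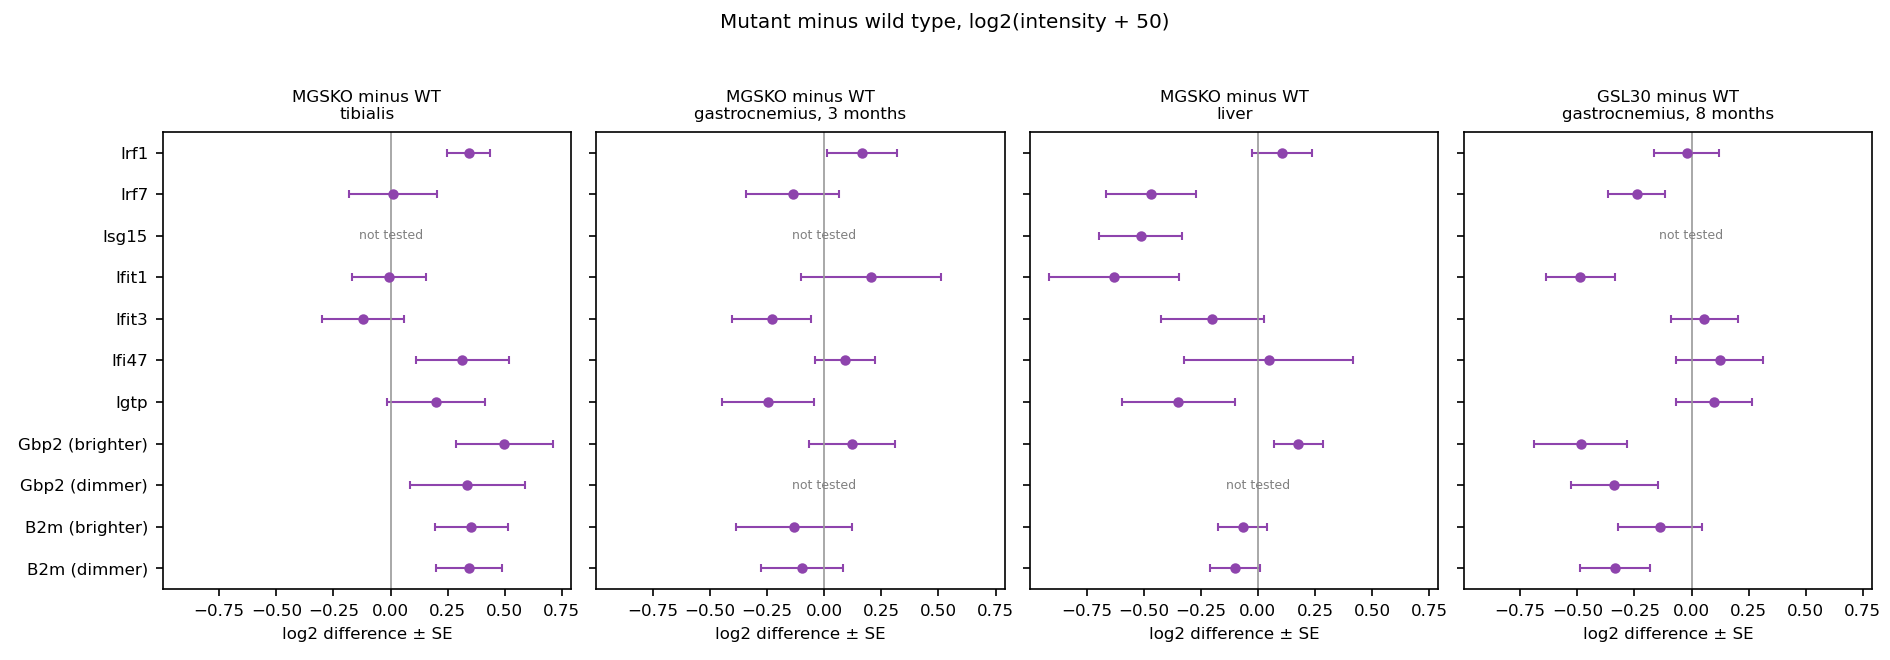
Mutant minus WT difference on the log2(intensity + 50) scale, with the SE as bars, for the 11 probe sets in the 4 comparisons. Points right of 0 are higher in the mutant. The members run from -0.12 to 0.50 in MGSKO tibialis, from -0.25 to 0.20 in MGSKO gastrocnemius, from -0.63 to 0.18 in MGSKO liver and from -0.49 to 0.12 in GSL30 gastrocnemius.

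Among the transcription factors, Irf1, which interferon gamma induces and which binds ISRE sites, read 2312, 2566, 2583 and 2453 in MGSKO tibialis, against 1921, 2033, 1915 and 1905 in WT tibialis. All 4 MGSKO arrays lay above all 4 WT arrays. The log2 difference was 0.34 ± 0.09 (SE), with an adjusted p of 0.134 from limma, and it stayed between 0.26 and 0.37 over 17 other settings, in none of which it passed. Irf1 was the 1 tested member of 10 whose groups did not overlap there, while 10.1% of all probe sets did not overlap. In the other 3 comparisons the groups overlapped for every tested member, where the share of all probe sets that did not overlap was 9.98% in MGSKO gastrocnemius, 5.17% in MGSKO liver and 7.38% in GSL30 gastrocnemius.

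Irf1 read 2338, 2221 and 2080 in MGSKO gastrocnemius, against 1682, 2533, 1978, 1804 and 1933 in WT gastrocnemius at 3 months. WT replicate 2, the array with the highest hepatocyte and skeletal muscle sums, was the highest of these 8 arrays, and the other 4 WT arrays lay below all MGSKO arrays. In MGSKO liver Irf1 read 1705, 1945, 2333 and 2140, against 1883, 2145, 1854 and 1643 in WT liver. In GSL30 gastrocnemius it read 2955, 2072, 2416, 2753 and 2804, against 2986, 2791, 2564, 2013 and 2866 in WT at 8 months, so both groups covered the same range. Over the 8 groups the means ran from 2644 ± 385 (SD, n = 5) in WT gastrocnemius at 8 months to 1881 ± 206 (SD, n = 4) in WT liver, and each group's range overlapped that of its neighbour in this order.

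Irf7, the factor that drives a large part of type I interferon production and is itself induced by interferon, did not separate the groups in muscle. It read 465, 434, 388 and 284 in MGSKO tibialis, against 430, 286, 517 and 337 in WT tibialis, a log2 difference of 0.01 ± 0.19 (SE). MGSKO gastrocnemius read 394, 518 and 452, against 477, 780, 400, 459 and 465.8 in WT gastrocnemius, where the array at 780 was again WT replicate 2. In GSL30 gastrocnemius it read 583, 487, 430, 481 and 613, against 712, 641, 569, 539 and 640 in WT, with a difference of -0.24 ± 0.13 (SE) and an adjusted p of 0.292 from limma. GSL30 replicates 2, 3 and 4 lay below all WT arrays, and the ranges overlapped through the other 2.

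In liver Irf7 read 1046, 887, 1241 and 948 in MGSKO arrays, against 1028, 2000, 1610 and 1264 in WT arrays. WT replicate 1 lay among the MGSKO arrays and the other 3 WT arrays above them. The difference was -0.47 ± 0.20 (SE), with an unadjusted p of 0.0386 and an adjusted p of 0.576 from limma, and it kept its sign over 17 other settings (-0.62 to -0.31). Irf7 was highest in the 2 liver groups, and the range of MGSKO liver did not overlap that of the next group, WT gastrocnemius at 8 months, while all other neighbours overlapped.

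Of the antiviral effectors, Isg15 encodes a ubiquitin-like protein that is attached to other proteins after interferon exposure. Its probe set, shared with Gm9706, read 170, 153, 90.4 and 166 in MGSKO tibialis, against 212, 192, 251 and 171 in WT tibialis. The MGSKO arrays lay just below the WT arrays, at intensities under the limit for testing, so no test is given. It read 393, 287, 326 and 353 in MGSKO liver, against 412, 551, 716 and 393 in WT liver. The log2 difference was -0.51 ± 0.18 (SE), with an unadjusted p of 0.0173 and an adjusted p of 0.483 from limma. It was also too dim to test in gastrocnemius, at 11.7 to 116 in MGSKO and 99.1 to 401 in WT arrays at 3 months, and at 120 to 232 in GSL30 and 174 to 311 in WT arrays at 8 months.

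Ifit1, which binds RNA whose cap lacks the host's methyl marks, read 444, 401, 460, 355 and 299 in GSL30 gastrocnemius, against 436, 675, 539, 517 and 687 in WT gastrocnemius at 8 months. One WT array, replicate 1, lay within the GSL30 range and the other 4 above it. The difference of -0.49 ± 0.15 (SE) had the lowest adjusted p of any member in the 4 comparisons, 0.0878 from limma, and ran from -0.57 to -0.32 over 20 other settings, in none of which it passed. In liver Ifit1 read 482, 639, 573 and 616 in MGSKO arrays, against 507, 1225, 1531 and 729 in WT arrays. WT replicates 2 and 3 were far above the other 6 arrays, and the difference was -0.63 ± 0.29 (SE), with an adjusted p of 0.601 from limma.

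In tibialis Ifit1 read 327, 384, 310 and 479 in MGSKO arrays, against 381, 288, 395 and 441 in WT arrays, with a difference of -0.01 ± 0.16 (SE). Ifit1 was at 286, 361 and 339 in MGSKO gastrocnemius, against 267, 120, 376, 439 and 284 in WT gastrocnemius of the same age, where the lowest array was WT replicate 2. Neither pair of groups separated.

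Ifit3, which in human cells binds and stabilises IFIT1, passed in no comparison. It read 624, 525, 438 and 789 in MGSKO tibialis, against 680, 524, 759 and 604 in WT tibialis, and 492, 569, 553 and 593 in MGSKO liver, against 396, 876, 887 and 534 in WT liver. As for Ifit1, WT liver replicates 2 and 3 were the highest. MGSKO gastrocnemius read 398, 425 and 420, against 372, 624, 489, 599 and 432 in WT gastrocnemius. GSL30 gastrocnemius read 793, 795, 811, 726 and 716, against 1051, 787, 617, 710 and 592 in WT, a difference of 0.06 ± 0.15 (SE). Adjusted p from limma lay between 0.603 and 0.851 in all 4 comparisons, and neighbouring groups in the order of levels overlapped throughout.

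The interferon-inducible GTPases act on the membranes of vacuoles that hold parasites and bacteria. Ifi47, of the immunity-related GTPase family, read 786, 575, 830 and 1105 in MGSKO tibialis, against 559, 613, 875 and 545 in WT tibialis, a difference of 0.31 ± 0.21 (SE). In liver it read 2751, 1109, 1016 and 827 in MGSKO arrays, against 795, 1489, 1948 and 976 in WT arrays. The value of 2751 in MGSKO replicate 1 stood apart from its group, and without that array the difference turned sign, to -0.32 against 0.05 with it, neither past the threshold. Ifi47 read 635, 855 and 678 in MGSKO gastrocnemius, against 659, 716, 685, 621 and 674 in WT gastrocnemius at 3 months. At 8 months it read 1376, 928, 1062, 1597 and 1414 in GSL30 arrays, against 951, 1226, 1085, 908 and 1701 in WT arrays. Groups overlapped in each of these.

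Igtp, a relative of Ifi47 that sits on the endoplasmic reticulum and takes part in defence against Toxoplasma, read 1075, 669, 1021 and 1591 in MGSKO tibialis, against 873, 884, 921 and 928 in WT tibialis. The WT arrays were within a narrow range, and the MGSKO arrays lay on both sides of it. In liver it read 1675, 1835, 2003 and 2114 in MGSKO arrays, against 1576, 3727, 3165 and 1872 in WT arrays, again with WT replicates 2 and 3 highest. The liver difference was -0.35 ± 0.25 (SE), with an adjusted p of 0.749 from limma. MGSKO gastrocnemius read 984, 768 and 613, against 862, 1133, 851, 1150 and 719 in WT gastrocnemius, and GSL30 gastrocnemius read 1168, 1037, 1138, 1194 and 937, against 897, 1159, 834, 823 and 1507 in WT. The liver groups had the highest means of the 8 and did not overlap the next group by mean, GSL30 gastrocnemius. They were not clear of all muscle arrays: the lowest WT liver array, 1576, lay below the highest MGSKO tibialis array, 1591.

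Gbp2, a guanylate-binding protein that coats such vacuoles, was the member with the largest differences in opposite directions. The brighter probe set read 859, 589, 667 and 1196 in MGSKO tibialis, against 564, 428, 648 and 590 in WT tibialis. The ranges overlapped by MGSKO replicate 2, and the difference of 0.50 ± 0.21 (SE) had an adjusted p of 0.314 from limma. The dimmer probe set read 442, 320, 444 and 701 in MGSKO tibialis, against 476, 256, 464 and 271 in WT tibialis, a difference of 0.34 ± 0.25 (SE).

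In GSL30 gastrocnemius the brighter Gbp2 probe set read 400, 415, 404, 477 and 379, against 591, 671, 615, 330 and 938 in WT gastrocnemius. All 5 GSL30 arrays lay below 4 of the WT arrays, and WT replicate 4 lay below all GSL30 arrays. The difference was -0.49 ± 0.20 (SE), with an adjusted p of 0.195 from limma. Without WT replicate 4 it was -0.68, with an adjusted p of 0.0337 from limma, and this was the 1 setting in which a member passed in a mutant comparison. WT replicate 4 read below its group's mean for all 8 members with a testable probe set over the 34 arrays. The dimmer probe set read 275, 192, 305, 267 and 162 in GSL30 arrays, against 293, 252, 379, 228 and 440 in WT arrays, a difference of -0.34 ± 0.19 (SE).

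Gbp2 differed little elsewhere. The brighter probe set read 461, 536 and 334 in MGSKO gastrocnemius, against 379, 369, 531, 329 and 401 in WT gastrocnemius. It read 202, 223, 223 and 243 in MGSKO liver, against 183, 214, 195 and 172 in WT liver. By both probe sets the liver groups had the lowest means of the 8. By the brighter one, MGSKO liver did not overlap WT gastrocnemius at 3 months, the next group up. By the dimmer one, MGSKO liver reached 182 and overlapped its next group up, GSL30 gastrocnemius, which began at 162.

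B2m, the light chain shared by all class I antigen-presenting molecules, was read by 2 probe sets. The dimmer one read 10230, 9347, 10838 and 13784 in MGSKO tibialis, against 8673, 7736, 10009 and 8166 in WT tibialis. MGSKO replicate 2 lay within the WT range and the other 3 MGSKO arrays above it. The difference was 0.34 ± 0.14 (SE), with an adjusted p of 0.308 from limma. The brighter one read 14593, 12715, 12008 and 18196 in MGSKO arrays, against 13502, 10727, 10738 and 9735 in WT arrays, a difference of 0.35 ± 0.16 (SE), with MGSKO replicates 2 and 3 inside the WT range.

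In GSL30 gastrocnemius the dimmer B2m probe set read 7958, 9234, 9732, 14291 and 9346, against 13103, 11902, 13035, 10735 and 14097 in WT gastrocnemius. GSL30 replicate 4 lay above every WT array and the other 4 below every WT array. The difference was -0.34 ± 0.15 (SE), with an adjusted p of 0.233 from limma. The brighter probe set read 15630, 18909, 24629, 25834 and 23569 in GSL30 arrays, against 27061, 23552, 23952, 16118 and 29137 in WT arrays, a difference of -0.14 ± 0.18 (SE).

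In MGSKO liver the brighter B2m probe set read 40797, 43485, 48088 and 38597, against 44999, 43943, 43211 and 46449 in WT liver, a difference of -0.07 ± 0.11 (SE). MGSKO gastrocnemius read 21604, 21649 and 17726, against 17678, 35889, 19896, 26102 and 16336 in WT gastrocnemius, with the highest value in WT replicate 2. By both probe sets the liver groups were the highest and did not overlap the next group, WT gastrocnemius at 8 months.

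Markers of other cell types moved with some of these comparisons. Summed over 11 endothelial markers, intensities were 25178 to 29230 in MGSKO tibialis and 18747 to 23054 in WT tibialis, 23238 to 26155 in MGSKO gastrocnemius and 15706 to 19543 in WT gastrocnemius, and 16367 to 18133 in GSL30 gastrocnemius and 22527 to 26596 in WT gastrocnemius at 8 months. None of these pairs of ranges overlapped. In GSL30 gastrocnemius 4 of the 11 markers passed, all lower, where 2.2% of all probe sets passed lower. In MGSKO tibialis 0 of 11 passed, and 11 were above 0 (56.7% of all probe sets). In MGSKO gastrocnemius 0 of 11 passed, and 10 were above 0 (56.5% of all). Beside these sums, the brighter Gbp2 and B2m probe sets differed by 0.50 and 0.35 in MGSKO tibialis, by 0.12 and -0.13 in MGSKO gastrocnemius and by -0.49 and -0.14 in GSL30 gastrocnemius. In the same order of comparisons, Irf1 differed by 0.34, 0.16 and -0.02, Irf7 by 0.01, -0.14 and -0.24, and Ifit1 by -0.01, 0.20 and -0.49. Ifit3 differed by -0.12, -0.23 and 0.06, Ifi47 by 0.31, 0.09 and 0.12, and Igtp by 0.20, -0.25 and 0.10. No endothelial marker averaged under 100 in muscle, and their part in the member differences was not tested. In GSL30 gastrocnemius 2 of 6 tested hepatocyte markers also passed, both lower. With the arrays of high hepatocyte sum left out, 0 members passed in either gastrocnemius comparison, as with all arrays. The MGSKO comparison then kept only MGSKO replicates 2 and 3 and WT replicates 3 and 5. The GSL30 comparison lost WT replicates 2 and 5. With so few arrays, and no member past the threshold before, this count cannot show whether hepatocyte transcripts had a part in the member values.

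Summed over 11 macrophage markers, ranges overlapped between mutant and WT in all 4 comparisons, 13295 to 19215 in MGSKO and 12037 to 21749 in WT tibialis being one. Macrophage markers passed only in GSL30 gastrocnemius, 1 of 10 tested, lower, where 2.2% of all probe sets passed lower. Summed over 6 neutrophil markers, WT tibialis replicates 2 and 3 read 7135 and 28024, against 1303 to 1818 on the other 6 tibialis arrays. Of the 10 T and NK cell markers measured, 7 were under 100 in MGSKO tibialis and 6 in WT tibialis, Cd3d, Cd3g and Cd4 among them in both. Leukocyte, T cell and B cell sums overlapped between mutant and WT in each comparison. Their part in the member values was not tested.

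The study's design places the same knockout in 2 muscles and in liver, where Gys1 read near background in both genotypes, and sets it against the overexpressing line, so the effects were compared with each other as contrasts. None of these contrasts had a member past the threshold. They share arrays: the MGSKO and WT tibialis arrays stand in 3 of the 4. In any comparison or contrast the members are read on the same arrays. A count of members above or below 0 is therefore not a count of independent results.

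The MGSKO effect in tibialis minus that in liver was above 0 for all 11 member probe sets, and 52.7% of all probe sets were above 0. Their median was 0.32, against 0.02 over all probe sets, with 0 of 11 past the threshold (0.744% of all) and a lowest adjusted p of 0.319 from limma. The largest was Ifit1, 0.62 ± 0.35 (SE), then Igtp, 0.55 ± 0.35, and Irf7, 0.48 ± 0.29. The B2m contrast of the dimmer probe set, 0.44 ± 0.18 (SE), had the lowest p, 0.0246 unadjusted. All 11 stayed above 0 with quantile normalization and with a common median.

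The GSL30 effect in gastrocnemius minus the MGSKO effect in tibialis was below 0 for 9 of 10 tested members, with Ifit3 the exception, and 48.4% of all probe sets were above 0. The median was -0.42, against -0.02 over all probe sets, and 0 of 10 passed, against 6.03% of all. The brighter Gbp2 probe set gave -0.98 ± 0.31 (SE), with an adjusted p of 0.0698 from limma, and the dimmer B2m probe set gave -0.68 ± 0.22 (SE), with an adjusted p of 0.0714. Both passed when the dimmest 60% of probe sets were left out, with adjusted p of 0.0471 for Gbp2 and 0.0475 for B2m from limma. These groups differ in muscle and age as well as in genotype, which cannot be told apart.

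The MGSKO effect in gastrocnemius minus that in tibialis was above 0 for 1 of 10 members, where 51.9% of all probe sets were above 0, and for 2 of 10 with a common median. The median was -0.24, against 0.02 over all probe sets, and 0 of 10 passed (0.0147% of all). The GSL30 minus the MGSKO effect within gastrocnemius was above 0 for 3 of 10 members, where 47.6% of all probe sets were above 0, and for 2 of 10 with a common median. The median was -0.14, against -0.03 over all probe sets, and 0 of 10 passed (2.3% of all). In that last contrast Ifit1 was lowest, at -0.69 ± 0.33 (SE), and the brighter Gbp2 probe set stood at -0.61 ± 0.30 (SE), with adjusted p of 0.288 and 0.295 from limma.

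**Figure D3:**
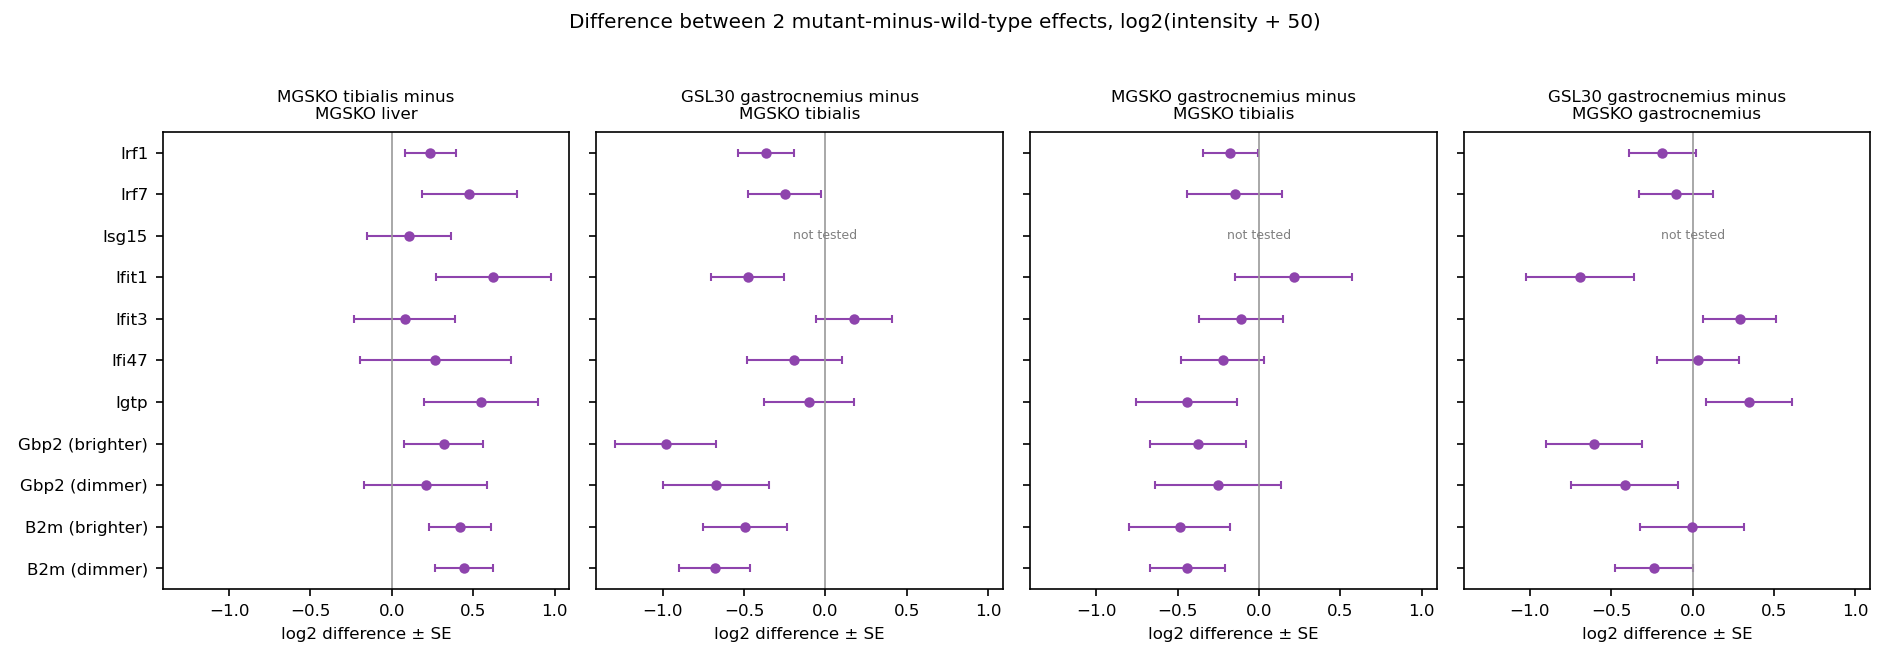
Difference between 2 mutant-minus-WT effects on the log2(intensity + 50) scale, with the SE as bars, for the member probe sets. A point right of 0 means that the effect named first was the higher. All 11 points of the tibialis minus liver panel lie right of 0, the largest being Ifit1 at 0.62, and 9 of 10 points of the GSL30 gastrocnemius minus MGSKO tibialis panel lie left of 0, the lowest being Gbp2 at -0.98.

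Between WT liver and WT tibialis 8 of 10 tested members passed, a share near the 69.4% of all probe sets that passed. By direction, 7 were higher and 1 lower in liver, and of all probe sets 28.2% passed higher and 41.1% lower. The brighter B2m probe set averaged 44651 ± 1406 in WT liver and 11176 ± 1620 in WT tibialis (SD, n = 4 each), a log2 difference of 2.004. Irf7 averaged 1476 ± 424 and 393 ± 102 in WT liver and WT tibialis, a difference of 1.77, Igtp 2585 ± 1027 and 901 ± 26.8, a difference of 1.38, and Ifit1 998 ± 465 and 376 ± 64.4, a difference of 1.20. Ifi47 (0.90) and the Isg15 probe set (1.12) were also higher in liver. The brighter Gbp2 probe set was lower, 191 ± 17.7 in WT liver and 557 ± 92.9 in WT tibialis, a difference of -1.32.

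Irf1 (-0.05 ± 0.11, SE) and Ifit3 (0.01 ± 0.24, SE) did not pass between these tissues. Groups did not overlap for 7 of the 10 members, and for 64% of all probe sets. A common median moved the median of all probe sets by 0.17 in this comparison, and the called members were called under that scaling too, in the same direction. Endothelial sums were 6342 to 7200 in WT liver and 18747 to 23054 in WT tibialis. Liver and muscle arrays also started from different amounts of RNA, 10 and 5 µg, which cannot be told apart from tissue.

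Between WT gastrocnemius and WT tibialis at 3 months 1 of 10 members passed (27% of all probe sets did), the brighter B2m probe set, at 23180 ± 8031 (SD, n = 5) in gastrocnemius and 11176 ± 1620 (SD, n = 4) in tibialis. Its difference of 0.997 was 0.698 without the 3 WT gastrocnemius arrays of high hepatocyte score, which read 17678, 35889 and 26102. That was still past the threshold (adjusted p = 0.042 from limma). The WT gastrocnemius arrays kept still had hepatocyte sums of 100795 and 53210, against 2278 to 4015 in WT tibialis, so hepatocyte transcripts were not removed by this. The dimmer B2m probe set did not pass (0.31 ± 0.16, SE).

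WT gastrocnemius at 8 months read higher than at 3 months for all 10 tested member probe sets, against 60.3% of all probe sets above 0, and 1 of 10 passed, against 6.19% of all. The median was 0.38, against 0.08 over all probe sets. With quantile normalization 9 of 10 were above 0 (59.5% of all), and with a common median 10 of 10 (60.9% of all). Ifi47 passed, at 1174 ± 320 at 8 months and 671 ± 35.0 at 3 months (SD, n = 5 each), with no overlap and a difference of 0.73 and an adjusted p of 0.0215 from limma. Without the gastrocnemius arrays of high hepatocyte score it did not pass, and 2 arrays at 3 months and 3 at 8 months were then left. Ifit1 averaged 570 ± 108 at 8 months and 297 ± 121 at 3 months, a difference of 0.91 with an adjusted p of 0.058. Summed over 7 leukocyte markers, intensities were 8697 to 15655 at 8 months and 2844 to 3939 at 3 months, and their part in the difference was not tested. Age cannot be told apart from anything else that differed between these 2 sets of arrays.

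Over a wider list of 111 interferon pathway genes other than the 9, 87 were measured, by 146 probe sets. In MGSKO tibialis 2 of 104 tested probe sets passed, both higher, near the 1.4% of all probe sets, and the median was 0.14, against 0.04 over all probe sets. One was Ifi30, a lysosomal thiol reductase of antigen processing, at 4325, 5702, 4668 and 3897 in MGSKO tibialis and 421, 499, 560 and 380 in WT tibialis, a difference of 3.19 ± 0.16 (SE) with an adjusted p of 2.24e-05 from limma. The other was Irf5, a transcription factor of macrophages, at 1123, 1148, 1270 and 1005 in MGSKO tibialis and 618, 809, 618 and 663 in WT tibialis, a difference of 0.71 ± 0.12 (SE) with an adjusted p of 0.0273, lost when any 1 of 5 of the 8 arrays was left out (WT replicate 1 or 3, MGSKO replicate 1, 2 or 3), with a common median, or with no dim filter. By group, 0 of 6 receptor, 0 of 14 signalling, 1 of 8 IRF, 0 of 32 antiviral effector, 0 of 8 GTPase and 1 of 35 antigen presentation probe sets passed there, and the 1 ligand probe set tested did not.

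In MGSKO gastrocnemius 0 of 98 passed (0.147% of all), with Ifi30 nearest among the higher at 1.71 ± 0.30 (SE) and an adjusted p of 0.0932 from limma, and Ptpn11, a phosphatase that acts on JAK-STAT signalling, next at 0.47 ± 0.12 (SE). In MGSKO liver 0 of 108 passed (0.00737% of all). The lowest p there was that of Ifngr2, a chain of the interferon gamma receptor, whose probe set read 613, 485, 663 and 516 in MGSKO liver and 905, 916, 944 and 880 in WT liver, a difference of -0.64 ± 0.12 (SE) with an adjusted p of 0.231. A second Ifngr2 probe set differed by -0.08 ± 0.20 (SE). Samhd1, a nucleotide-degrading restriction factor, differed by 1.73 ± 0.36 (SE) with an adjusted p of 0.256.

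In GSL30 gastrocnemius 1 of 105 passed, where 4.31% of all probe sets did. It was 1 probe set of Trim25, and no other Trim25 probe set passed there. Trim25 is a ubiquitin ligase that activates the RNA sensor RIG-I and acts on Isg15 conjugation. The passing probe set read 721, 757, 712, 911 and 717 in GSL30 and 940, 1058, 1109, 1167 and 1051 in WT arrays. No GSL30 array reached the lowest WT array, and the difference was -0.46 ± 0.11 (SE) with an adjusted p of 0.0409 from limma, lost when any 1 of 9 of the 10 arrays was left out, GSL30 replicate 4 being the exception. Gbp6 (-0.88 ± 0.25, SE) and Uba7, the enzyme that activates Isg15 (-0.95 ± 0.29, SE), had adjusted p of 0.0698 and 0.0798.

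In WT gastrocnemius at 8 against 3 months, 18 of 101 wider-list probe sets passed, all higher, where 3.6% of all probe sets passed higher, and 12 of them belong to antigen presentation. H2-Aa, a class II chain carried by antigen-presenting cells, averaged 3880 ± 1016 at 8 months and 1099 ± 194 at 3 months (SD, n = 5 each), a difference of 1.76. Irf8, a transcription factor of myeloid cells, differed by 1.36, the class II invariant chain Cd74 by 1.33, the class II chain H2-Eb1 by 1.19, the immunoproteasome subunit Psmb8 by 1.14 and the lysosomal protease Ctss by 0.95. Without the arrays of high hepatocyte score 2 of 104 passed. Without WT replicate 1 or 4 at 3 months 10 passed, and without replicate 2 or 3 at 8 months 11. The leukocyte sums given above moved with these genes, and their part was not tested. Between WT liver and WT tibialis 49 of 105 passed higher (28.2% of all probe sets) and 21 lower (41.1% of all). Between WT gastrocnemius and WT tibialis 16 of 102 passed higher (12.2% of all) and 9 lower (14.8% of all).

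Members also varied between arrays of 1 group. The deviation of each array from its group mean was taken for the brighter or only probe set of the 8 members bright enough over all 34 arrays, which left out Isg15. In MGSKO tibialis, replicate 4 read above its group mean for 6 of the 8. WT liver replicates 2 and 3 read above it for 7 and 6, and replicates 1 and 4 for 2 and 1. In WT gastrocnemius at 8 months, replicate 2 read above it for all 8 and replicate 4 for 0.

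**Figure D4:**
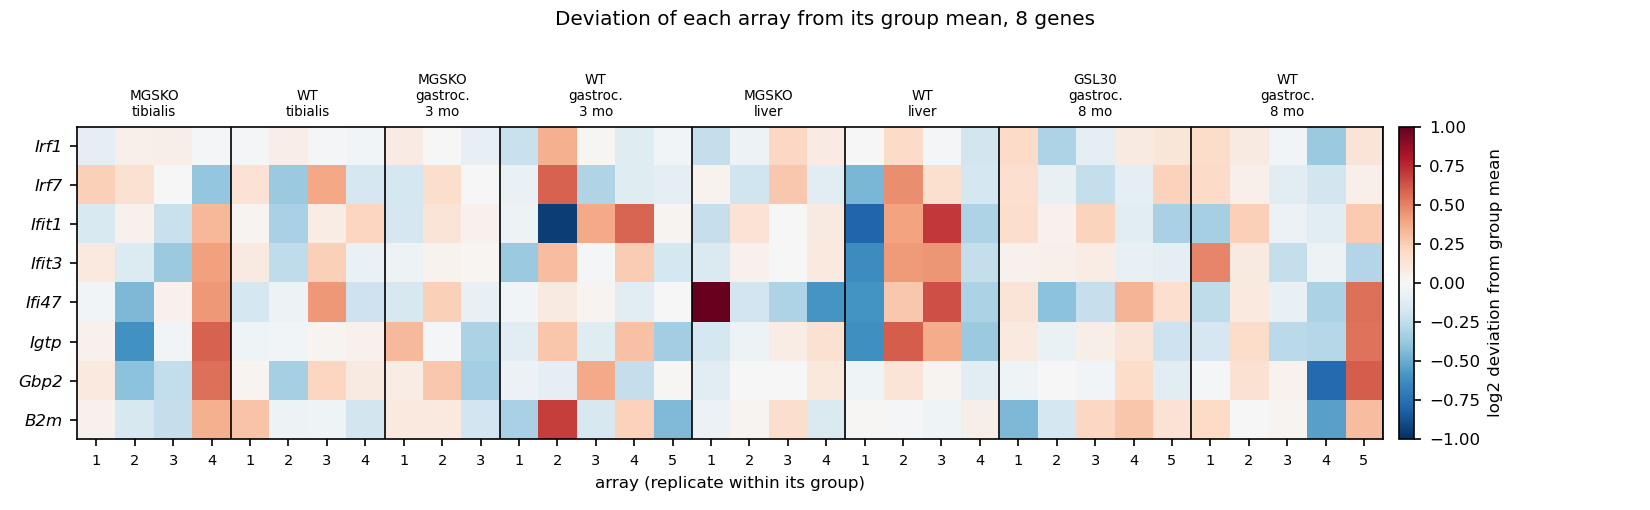
Deviation of each array from the mean of its own group on the log2(intensity + 50) scale, for the 8 members tested over all 34 arrays, with groups side by side and each mutant group left of its WT group. Red is above the group mean and blue below. WT liver replicate 2 is red for 7 of 8 genes, and WT gastrocnemius replicate 4 at 8 months is blue for all 8.

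Of the 28 pairs among these 8 members, 25 correlated above 0 over the 34 arrays, with a median r of 0.32 and a range of -0.20 to 0.56. In the 100000 permutations of arrays within groups (two-sided, Benjamini-Hochberg over 28 pairs), 0 pairs passed for Pearson's r and 0 for Spearman's rho. The highest pair was Ifit3 with Igtp, at r = 0.56 (permutation p = 0.0315, adjusted 0.122) and rho = 0.54 (permutation p = 0.0149, adjusted 0.0903). Without the 2 arrays farthest from the median of Ifit3 it was 0.57. Igtp with Gbp2 gave r = 0.55 (permutation p = 0.00437, adjusted 0.0847) and rho = 0.53 (permutation p = 0.00471, adjusted 0.0903), and r = 0.48 without the 2 farthest arrays.

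Within the arrays of 1 tissue and age the same pairs differed. Ifit3 with Igtp gave r = 0.97 over the 8 liver arrays (exact permutation p = 0.0139, adjusted 0.194) and -0.27 over the 10 gastrocnemius arrays at 8 months (exact permutation p = 0.636). Igtp with Gbp2 gave 0.84 over the 8 tibialis arrays, 0.79 over liver and 0.78 over gastrocnemius at 8 months, but -0.03 over the 8 gastrocnemius arrays at 3 months. Ifit1 with Ifit3 gave 0.98 over the liver arrays (exact permutation p = 0.00347, adjusted 0.0972). The median r over the 28 pairs was 0.31 in tibialis, 0.45 in liver, 0.18 in gastrocnemius at 3 months and 0.32 at 8 months.

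The 8 genes outside the members whose deviations were most like the members' mean standardized deviation, by Pearson's r over the 34 arrays, were Rsad2 (0.78), Irf9 (0.70), Gbp7 (0.68), Ppm1m (0.68), Lmo1 (0.66), Rtp4 (0.63), Ncaph (0.63) and Irgm2 (0.61). Of these 8, 4 (Rsad2, Irf9, Gbp7 and Irgm2) are in the wider list. Within those sets of arrays Rsad2 had an r of 0.78 in tibialis, 0.90 in liver, 0.72 in gastrocnemius at 3 months and 0.69 at 8 months. Ncaph gave 0.95 in liver and -0.07 in gastrocnemius at 8 months. The median r was 0.16 over the 104 wider-list probe sets and 0.00 over all 13576. The arrays share the authors' scaling, which also enters these values.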

How the data were processed

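Total RNA from mouse tibialis, gastrocnemius and liver was hybridised to Affymetrix arrays, from about 5 µg for muscle and 10 µg for liver per the labels' protocols. The deposited values are intensity on a linear scale, 22690 probe sets on 34 arrays. As read from the values, the authors had scaled each array to a mean of about 1000 after trimming 2% at each end (1000.34 to 1000.49). How probes were combined into probe sets: not given in the sources used here.

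Negative values became 0 before log2(value + 50). After 64 control probe sets and the dimmest 40% by mean were dropped, 13576 remained. limma 3.58.1 (R 4.3.3; lmFit, eBayes, Benjamini-Hochberg) fitted every comparison separately, from its own groups only. The number of arrays limits the precision. Replicate numbers are only names, in accession order, so nothing was paired. Fits were tested on simulated data. Symbols came from the supplied probe annotation (20393 probe sets with 1 symbol, 691 with several, 1606 with none).

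The members and gene lists were chosen with earlier results of these data known. All member probe sets are named, and up to 6 wider-list genes per direction that passed, or the 2 of smallest p where fewer than 2 passed, the 8 genes most like the members, and Gys1. A second Ifngr2 probe set was added after values were seen. Promoters are from RefSeq. Alternatives were quantile or common-median scaling, pseudocounts of 1 and 200, no dim filter or one at the 60th percentile, trend with robust eBayes, array weights, 1 fit of all arrays, a hepatocyte-score covariate, and arrays left out.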

Additional observations from a re-analysis of the deposited data

Results flagged for a closer look

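One array stood apart from the rest of its group in 4 of the 77 sets of 4 or 5 arrays checked for the 11 member probe sets, and chance alone marks about 1 in 20 such sets. For Irf1, WT tibialis replicate 2 read 2033, against 1905 to 1921 on the other 3 WT arrays. For Irf7, WT gastrocnemius replicate 2 at 3 months read 780, against 400 to 477 on the other 4, and it is the array with the highest hepatocyte and skeletal muscle marker sums. For Ifi47, MGSKO liver replicate 1 read 2751, against 827 to 1109 on the other 3. For the dimmer B2m probe set, GSL30 gastrocnemius replicate 4 read 14291, against 7958 to 9732 on the other 4.

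Some wider-list probe sets passed in the contrasts of effects, on the log2(intensity + 50) scale with adjusted p from limma. For MGSKO tibialis minus liver 2 of 103 tested passed, where 0.744% of all probe sets did. For GSL30 gastrocnemius minus MGSKO tibialis it was 4 of 103, where 6.03% of all did. For GSL30 minus MGSKO within gastrocnemius it was 1 of 103 (2.3% of all), and for MGSKO gastrocnemius minus tibialis 0 of 102 (0.0147% of all). The MGSKO effect in tibialis minus that in liver was 3.17 for Ifi30 (adjusted p = 3.31e-06) and 0.84 for 1 probe set of Ifngr2 (adjusted p = 0.0389). The other Ifngr2 probe set was not among those that passed. The GSL30 effect in gastrocnemius minus the MGSKO effect in tibialis was -3.31 for Ifi30 (adjusted p = 1.72e-06), -0.66 and -0.65 for 2 Trim25 probe sets (adjusted p = 0.0147 and 0.0449) and -1.67 for the GTPase Iigp1 (adjusted p = 0.026). Another Trim25 probe set of the array was not among those that passed. Iigp1 read 275, 143, 304, 219 and 216 in GSL30 gastrocnemius and 331, 421, 299, 263 and 524 in its WT group, and 752, 367, 870 and 1142 in MGSKO tibialis and 256, 172, 580 and 354 in WT tibialis. Within gastrocnemius the GSL30 minus the MGSKO effect was -1.83 for Ifi30 (adjusted p = 0.0112).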

How the results depend on the processing

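The count of 0 members past the threshold in MGSKO tibialis, gastrocnemius and liver held in every alternative run, including each array left out. In GSL30 gastrocnemius it was 0 to 1 with each array left out, and 1 only without WT replicate 4 (Gbp2). For the contrast of the GSL30 effect with the MGSKO tibialis effect it was 1 with quantile normalization (B2m), 2 with a filter at the 60th percentile, and 0 to 1 with each array left out (1 without WT replicate 4 or GSL30 replicate 4). For WT gastrocnemius against WT tibialis, 1 member passed, and 2 did with quantile normalization or a common median (B2m and Gbp2), with 1 to 2 over arrays left out. For WT gastrocnemius at 8 against 3 months, 1 member passed, 2 with a pseudocount of 200 and 0 without the arrays of high hepatocyte score (chosen after seeing the data), with 0 to 2 over arrays left out: 0 without WT replicate 1 or 4 at 3 months or replicate 2 at 8 months. Between WT liver and WT tibialis 8 to 9 passed over arrays left out.

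Of the wider list, MGSKO tibialis had 2 past the threshold (Ifi30 and Irf5), 1 with a common median (Ifi30), Ifi30 and Irf3 but not Irf5 with no dim filter (adjusted p of Irf3 = 0.0412 from limma), and 1 to 2 over arrays left out. MGSKO gastrocnemius had 0, 1 with array weights and 4 with all 34 arrays in 1 fit, and MGSKO liver had 0 and 2 with all 34 arrays. GSL30 had 1, 0 with a common median, with no dim filter, with the hepatocyte score as covariate or without the arrays of high score, 2 with the 60th percentile filter or array weights, 3 with all 34 arrays, and 0 to 3 over arrays left out. At 8 against 3 months 18 passed, 2 without the arrays of high score and 10 to 18 over arrays left out (both added after seeing the data). The causes were not tested.

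Of the 28 member pairs, 0 passed, and 2 (Ifi47 with Igtp and with Gbp2) without the 2 arrays farthest from the median of the first gene, 0 within each series. Of the member differences, pooled over the mutant and the WT comparisons, 64 values turned sign under an alternative, none of them past the threshold in either fit. Of the other values, 1083 kept their sign and stayed on the same side of the threshold, 8 came to pass and 4 no longer passed. No paired analysis was possible because the replicate numbers are accession order. With 3 to 5 arrays a group, a count of 0 does not show that the members were unaffected.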
